A study of Mus musculus with 4 samples.

Results

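The 10 genes described here encode the synaptonemal complex and the HORMA domain proteins of the meiotic chromosome axis. They were taken by symbol from a deposited table of 11598 genes, and all 10 were present: *Sycp1* (transverse filament), *Sycp2* and *Sycp3* (lateral element), *Syce1*, *Syce2*, *Syce3*, *Tex12* and *Six6os1* (central element, the last listed as 4930447C04Rik), and *Hormad1* and *Hormad2* (unsynapsed axis). Ribosome profiling (Ribo-seq), which sequences the mRNA fragments that ribosomes protect from RNase (RPFs), was done on leptotene and zygotene spermatocytes, the early stages of meiotic prophase I, sorted from mouse testes at 12 days postpartum (dpp). There were 2 libraries from control littermates, given as wild type in the labels, and 2 from *Eef1g*-cKO mice. In *Eef1g*-cKO mice a floxed stretch of *Eef1g* exons was deleted in male germ cells by *Stra8*-GFPCre, which acts from type A spermatogonia onwards, so deletion can precede entry into meiosis. The Cre and floxed alleles carried by the controls, the number of animals behind a library and whether the 2 libraries of a genotype came from separate animals were not given in the sources used here. P-values therefore measure only the spread between these libraries, which may be technical.

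In meiotic prophase each pair of sister chromatids is organized along a cohesin-based axis, on which SYCP2 and SYCP3 form the lateral element. SYCP1 dimers span the gap between homologous axes as transverse filaments, and SYCE1, SYCE2, SYCE3, TEX12 and SIX6OS1 build the central element in which SYCP1 heads meet, so that the axes are zipped together in synapsis. HORMAD1 and HORMAD2 sit on axes that are not yet synapsed, promote and monitor pairing and DNA breaks, and are removed by the ATPase TRIP13 as the complex forms. eEF1G, the product of the deleted gene, is a scaffold subunit of eEF1B, the exchange factor that recharges eEF1A with GTP during translation elongation. The comparison asks what share of the ribosome footprints each structural part of the complex carried with and without eEF1G.

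The coding sequences of the 10 genes differed widely in base composition, and 2 stretches are shown because composition moved with the differences described below. The first is the whole coding sequence of *Syce3* (chromosome 15, minus strand), the shortest of the 10, and the second is the opening stretch of the same length from *Six6os1* (chromosome 12, minus strand), whose coding sequence had the lowest GC content. Both are in GENCODE M21 coordinates on GRCm38, and capitals mark codons whose last base is G or C.
Syce3 coding sequence: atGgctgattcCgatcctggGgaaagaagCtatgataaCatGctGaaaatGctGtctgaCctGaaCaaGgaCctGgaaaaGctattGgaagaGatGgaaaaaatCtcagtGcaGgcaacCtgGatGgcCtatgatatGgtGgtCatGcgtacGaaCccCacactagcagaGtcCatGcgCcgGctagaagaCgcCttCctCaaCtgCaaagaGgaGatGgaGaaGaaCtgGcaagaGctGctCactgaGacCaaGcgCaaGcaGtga
Six6os1 coding sequence, opening stretch: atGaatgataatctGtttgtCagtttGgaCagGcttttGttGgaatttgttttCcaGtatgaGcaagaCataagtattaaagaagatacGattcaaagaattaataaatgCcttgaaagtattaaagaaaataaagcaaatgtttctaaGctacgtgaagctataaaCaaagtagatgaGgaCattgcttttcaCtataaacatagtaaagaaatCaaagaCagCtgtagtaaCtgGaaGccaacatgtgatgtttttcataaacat
Of the 89 codons in each stretch, 60 ended in G or C in *Syce3* and 25 in *Six6os1*, and the GC content of the stretches was 50.2% and 30.7%. Over whole coding sequences, GC content was 31.9% in *Six6os1*, 34.4% in *Sycp1*, 36.1% in *Hormad1*, 36.6% in *Sycp2*, 38.2% in *Sycp3*, 39.8% in *Tex12* and 44.4% in *Hormad2*. The 3 SYCE genes stood apart at 51.0% (*Syce1*), 52.4% (*Syce2*) and 50.2% (*Syce3*). All 10 were below the median of 52.8% over the 9769 tested genes with a coding sequence.

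The sequence around the start codon, where ribosomes begin, is shown for *Hormad1*, which has the favorable bases at both flanking positions, and for *Sycp3*, the one member that lacks a purine 3 bases before the ATG. Capitals mark the ATG.
Hormad1 start site (chromosome 3, plus strand): tcttggaagATGgccactatgcag
Sycp3 start site (chromosome 10, plus strand): tttcctcagATGcttcgagggtgt
An A or G at that position was present in 9 of the 10 genes and in 86.5% of tested genes, and a G directly after the ATG in 6 of the 10 and in 53.5% of tested genes. The member with the most footprints, *Sycp3*, had neither.

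RefSeq promoter windows, from 250 bases before to 50 after an annotated start on GRCm38, were found for all 10 genes (13 windows). They were searched on both strands for the E-box CACGTG, the E2F core TCCCGC, the cAMP response element TGACGTCA and the STRA8 motif CNCCTCAG. The window of *Hormad1*, the gene with the largest fold change of the 10, and that of *Syce1*, the gene with the smallest, are printed with every match in capitals.
Hormad1, chr3:95559427-95559726, plus strand: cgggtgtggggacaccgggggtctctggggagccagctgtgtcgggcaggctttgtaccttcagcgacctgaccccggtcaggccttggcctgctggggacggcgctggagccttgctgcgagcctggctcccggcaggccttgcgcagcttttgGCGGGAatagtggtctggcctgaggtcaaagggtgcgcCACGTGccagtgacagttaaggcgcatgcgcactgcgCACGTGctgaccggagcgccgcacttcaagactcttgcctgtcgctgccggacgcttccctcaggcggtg
Syce1, chr7:140787805-140788104, minus strand: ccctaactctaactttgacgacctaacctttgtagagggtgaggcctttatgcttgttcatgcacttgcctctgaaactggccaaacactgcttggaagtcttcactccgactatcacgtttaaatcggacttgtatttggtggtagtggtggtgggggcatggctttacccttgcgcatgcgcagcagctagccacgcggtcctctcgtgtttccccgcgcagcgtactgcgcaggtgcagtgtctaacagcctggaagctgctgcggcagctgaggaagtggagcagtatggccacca
*Hormad1* held 2 E-boxes and 1 E2F core, and *Syce1* held none of the 4 motifs. The E-box was present in windows of 6 members (*Six6os1*, *Hormad1*, *Syce2*, *Sycp1*, *Sycp3* and *Tex12*) and in 7.15% of all 32851 windows of this length. The E2F core was present in 5 members (19.98% of all windows), the STRA8 motif in 5 (7.94%) and the cAMP response element in none (1.79%). *Sycp2* and *Syce3* also held none of the 4. In one *Syce2* window an E2F core overlapped a STRA8 motif. A match is a stretch of letters and not a measured binding site.

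The libraries differed in depth: 2479504 and 1384282 reads fell on genes in control, against 223906 and 407979 in *Eef1g*-cKO, a ratio of the means of 6.11. The deposited values are FPKM, that is RPFs scaled to the length of the gene model and to the total of the library. They give a gene's share of the footprints in its library, for its length. A higher value can come from more mRNA, from more ribosomes on each mRNA or from fewer footprints on other genes. In a sorted bulk sample fewer cells of a type and less RNA per cell cannot be told apart. The deleted gene, *Eef1g*, had 107 and 58 reads in control, against 0 and 4 in *Eef1g*-cKO, where a gene had a median of 5 and 8 reads. Counting limits given below are exact 95% Poisson limits and cover counting error only.

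All 10 genes took a larger share of the footprints in *Eef1g*-cKO than in control libraries. In every one of them the FPKM of the lower cKO library exceeded that of the higher control library, which held for 24.6% of the 10475 tested genes. All 10 had a log2 fold change above 0, where 40.9% of tested genes did. The rise passed the test for *Hormad1*, *Tex12*, *Six6os1*, *Sycp3* and *Syce3*. These 5 of 10 passed both parts of the call, a log2 fold change over 1 with a limma adjusted p below 0.05 (fitted on log2(FPKM + 1), Benjamini-Hochberg over all tested genes), as did 2.87% of tested genes. The same 5 passed an unadjusted p below 0.05 together with the fold threshold (7.32% of tested genes). *Sycp1*, *Sycp2*, *Syce2* and *Hormad2* passed that p but not the fold threshold. None was called lower, where limma called 4.97% of tested genes lower by adjusted p. With an unadjusted p below 0.05 and a log2 fold change below -1, limma called 16.3% lower. The same 5 genes are the synaptonemal complex examples that the study chose on these libraries, so their direction is not independent evidence. *Syce2* also passed the adjusted p, with a fold change just short of the threshold, which made 6 of 10 at any fold (2.94% of tested genes). The median log2 fold change was 1.13 over the 10 genes and -0.23 over all tested genes, of which 301 were called higher and 521 lower. With each library centred on its median, the median of all tested genes moved to -0.02, the calls to 521 higher and 383 lower (4.97% higher) and the members' median to 1.35, with *Syce2* as a sixth member called (6 of 10).

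**Figure D1:**
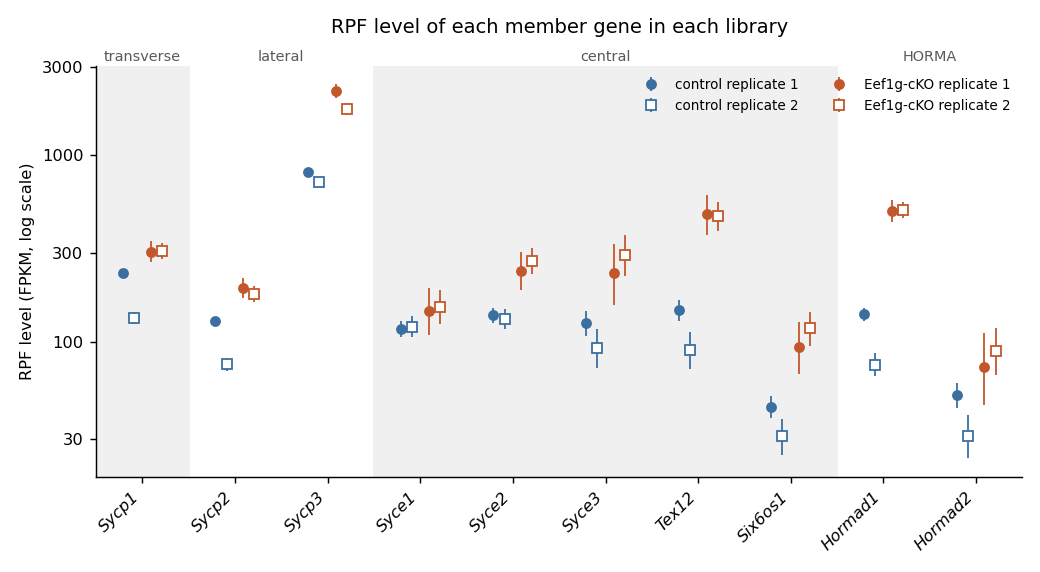
RPF level (FPKM, log axis) of the 10 genes in the 2 control (blue) and 2 *Eef1g*-cKO (orange) libraries, with exact 95% Poisson limits as bars, ordered by structural element. Both cKO points lie above both control points in every gene, with the widest gap for *Hormad1* and *Tex12* and the narrowest for *Syce1*.

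*Sycp3*, the lateral element protein that coats the whole axis, carried more footprints than any other member in every library. It had 811 and 716 FPKM in control, against 2217 and 1778 in *Eef1g*-cKO. The lower cKO library was 2.19 times the higher control library, and the log2 fold change was 1.38 (SE 0.26, limma adjusted p = 0.0389). It ranked 71 and 77 among the 10475 tested genes in control and 38 and 45 in cKO. *Sycp2*, which forms the lateral element with SYCP3 and anchors it to chromatin, had 129 and 75.8 FPKM in control, against 195 and 180 in *Eef1g*-cKO. Its groups did not overlap, but the control libraries differed from each other by a factor of 1.71, and the log2 fold change of 0.91 (SE 0.29) did not pass the limma test (adjusted p = 0.105). A count model applied to the recovered reads, edgeR's quasi-likelihood test, gave *Sycp2* an adjusted p of 0.0100 at a log2 fold change of 0.93, under the fold threshold.

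*Sycp1*, the only transverse filament gene, showed the second smallest difference of the 10. It had 233 and 134 FPKM in control, against 304 and 307 in *Eef1g*-cKO. The cKO libraries were almost equal, whereas the control libraries differed by a factor of 1.74 (95% limits 1.59 to 1.91), more than the ratio of 1.30 between the lower cKO and the higher control library. Its log2 fold change was 0.79 (SE 0.30, limma adjusted p = 0.146). edgeR placed it at 0.80 with an adjusted p of 0.0239, again under the fold threshold.

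The central element genes did not move alike. *Tex12*, whose small coiled-coil protein assembles with SYCE2 into the fibres of the central element, had 147 and 90.2 FPKM in control, against 485 and 473 in *Eef1g*-cKO, a log2 fold change of 2.05 (SE 0.28, limma adjusted p = 0.0296). Its cKO libraries were at least 3.21 times the higher control library. *Six6os1*, the binding partner of SYCE1, was the least abundant central element gene, with 44.6 and 31.0 FPKM in control, against 93.5 and 118 in *Eef1g*-cKO (log2 fold change 1.47, SE 0.27, limma adjusted p = 0.0383). *Syce3*, which links SYCP1 to the rest of the central element, had 125 and 92.7 FPKM in control, against 234 and 293 in *Eef1g*-cKO (log2 fold change 1.27, SE 0.24, limma adjusted p = 0.0407). This rested on few fragments, since *Syce3* is short: 172 and 71 reads in control and 29 and 66 in cKO, with counting limits of 157 to 336 FPKM in the shallower cKO library.

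*Syce2* and *Syce1* had the closest replicates of the 10 in control. *Syce2*, the partner of TEX12, had 138 and 132 FPKM in control, against 241 and 271 in *Eef1g*-cKO, and its log2 fold change was 0.91 (SE 0.19, limma adjusted p = 0.0484). *Syce1*, which joins SYCE3 and SIX6OS1 in the central element, had 117 and 121 FPKM in control, against 147 and 154 in *Eef1g*-cKO. The cKO libraries of *Syce1* were 1.22 times the higher control library at the least, yet the counting limits of cKO replicate 1, 108 to 194 FPKM, reached below both control values. Its log2 fold change of 0.34 (SE 0.19) did not pass the test by limma (adjusted p = 0.277) or by edgeR (0.190), and it was the one member of the 10 that missed the adjusted p in edgeR at any fold.

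The 2 HORMA domain genes, which are paralogs, differed widely from each other. *Hormad1*, needed for break formation and for synapsis, had 140 and 75.3 FPKM in control, against 503 and 511 in *Eef1g*-cKO. The log2 fold change was 2.29 (SE 0.32, limma adjusted p = 0.0296), and cKO libraries were at least 3.59 times the higher control library. *Hormad2*, which works in the surveillance of unsynapsed axes, had 51.7 and 31.2 FPKM in control, against 73.2 and 89.4 in *Eef1g*-cKO. It had the fewest reads of the members in both cKO libraries, 22 and 49, and its log2 fold change of 0.99 (SE 0.30) did not pass the test (limma adjusted p = 0.0943).

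edgeR on the recovered reads called 7 of the 10 genes higher, *Syce2* and *Hormad2* in addition to the 5, where it called 8.75% of 8056 tested genes (705 higher and 904 lower), and 9 of 10 passed its adjusted p at any fold, against 11.9%. DESeq2 called 5 of 10 (5.94% of the genes it gave an adjusted p). Leaving out control replicate 1 or control replicate 2 left 0 of the 10 called by adjusted p in limma, as for all tested genes (0 called in either direction). In these fits the control arm is 1 library, which is assumed to vary like the 2 cKO libraries, the only source of the spread. At an unadjusted p under 0.05, 8 members then passed without control replicate 1 (5.23% of tested genes) and 5 without control replicate 2 (4.57%). Without *Eef1g*-cKO replicate 1, 4 members were called by adjusted p (3.06%), and without *Eef1g*-cKO replicate 2, 3 (5.13%). Every member kept a log2 fold change above 0 in each of these, but without control replicate 2 *Sycp1* was at 0.39, *Sycp2* at 0.53 and *Hormad2* at 0.64, and without control replicate 1 *Sycp1* was at 1.19.

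By structural class, the ratio of cKO to control footprints was lowest for the transverse filament and highest for the HORMA axis. *Sycp1* alone took 802 and 460 RPM (reads scaled to a library total of 1000000) in control, against 1045 and 1056 in *Eef1g*-cKO, a ratio of means of 1.67. The 2 lateral element genes together took 1647 and 1235 in control and 3595 and 3017 in cKO, a ratio of 2.30, of which *Sycp3* made up the larger part. The 5 central element genes took 607 and 524 in control and 1152 and 1277 in cKO, a ratio of 2.15. The 2 HORMA genes took 338 and 186 in control and 1063 and 1101 in cKO, a ratio of 4.12. All 10 genes together took 3393 and 2405 RPM in control and 6856 and 6451 in cKO. The ratio of the HORMA genes was carried by *Hormad1* (4.70 in mean FPKM), whereas that of *Hormad2* was 1.96, below the ratios of the lateral and central elements. The lateral, central and HORMA classes each held both called and uncalled genes: log2 fold changes ran from 0.91 to 1.38 in the lateral element, from 0.34 to 2.05 in the central element and from 0.99 to 2.29 in the HORMA genes, so the spread inside the central element was wider than the gap between the median fold changes of the classes, 0.79 for the transverse filament, 1.14 for the lateral element, 1.27 for the central element and 1.64 for the HORMA genes.

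**Figure D2:**
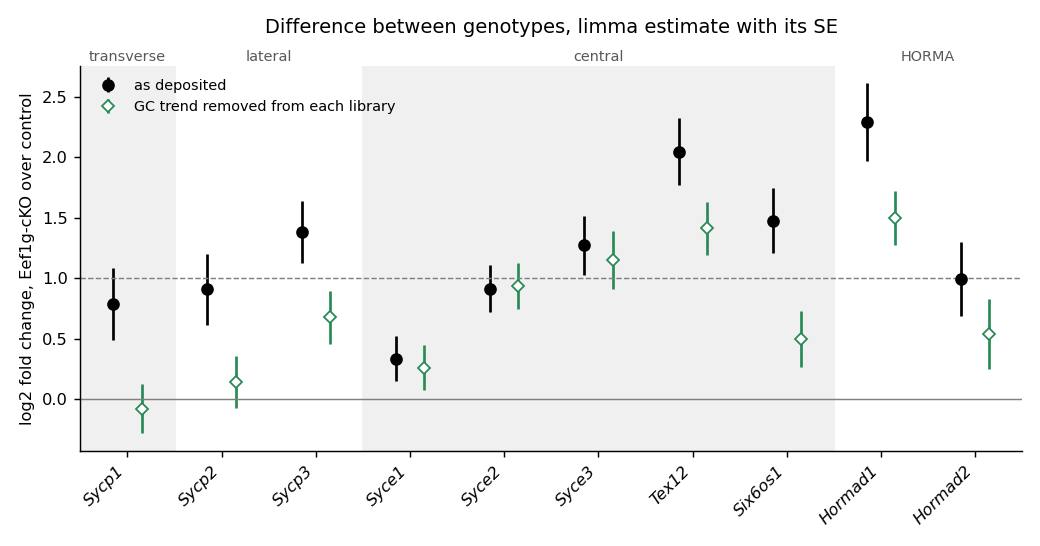
Log2 fold change (*Eef1g*-cKO over control) of each gene with its SE, as deposited (black circles) and after the trend of log2 level on coding GC content was removed from each library (open diamonds). The dashed line marks a log2 fold change of 1. *Sycp1* moves from 0.79 to -0.08 and *Six6os1* from 1.47 to 0.50, while *Syce1*, *Syce2* and *Syce3* move by little.

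Levels of different genes were compared per coding codon, as RPM per 1000 codons, because FPKM counts untranslated exons in the length. The coding sequence was from 38.9% of the deposited length in *Syce2* to 90.5% in *Six6os1*. On this scale *Sycp3* led in control with a mean of 3373 ± 298 (SD, n = 2), followed by *Syce2* at 1049 ± 34.5. The next genes, *Syce3*, *Sycp1*, *Tex12*, *Syce1*, *Hormad1* and *Sycp2*, ran from 686 to 389, and each overlapped its neighbour in this order across the 2 control libraries. *Hormad2* at 182 ± 63.5 and *Six6os1* at 126 ± 31.8 came last and also overlapped.

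In *Eef1g*-cKO spermatocytes the order was changed in its upper part. *Sycp3* still led, at 8825 ± 1371, and *Hormad1* at 2481 ± 28.4 and *Tex12* at 2402 ± 43.4 had higher means than *Syce2* at 1986 ± 168. In control both had ranked below *Syce2*, *Syce3* and *Sycp1*. *Syce3* followed at 1655 ± 259, *Sycp1* at 1058 ± 8.08, *Sycp2* at 710 ± 40.3 and *Syce1* at 669 ± 23.9, the last pair overlapping. *Hormad2* at 357 ± 50.5 and *Six6os1* at 351 ± 57.6 were level. Counting limits of *Hormad1*, *Tex12* and *Syce2* overlapped in both cKO libraries (1885 to 3090 for *Tex12* and 1466 to 2344 for *Syce2* in replicate 1). In both cKO libraries *Hormad1* (2461 and 2501) and *Tex12* (2433 and 2371) were above *Syce2* (1867 and 2105). Overlap of limits is not a test, and the order of these 3 was not tested.

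**Figure D3:**
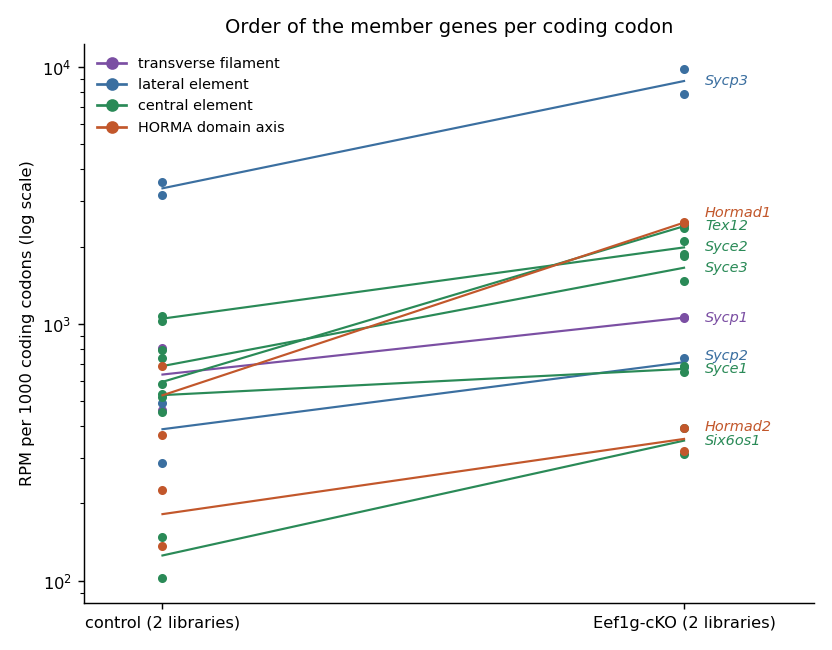
RPM per 1000 coding codons (log axis) of the 10 genes in control and *Eef1g*-cKO, with a point for each library and a line joining the genotype means, colored by structural element. The mean lines of *Hormad1* and *Tex12* cross those of *Syce2*, *Syce3* and *Sycp1*, and *Syce1* has the flattest line.

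Ratios between 2 genes within a library do not depend on how the library was scaled. For 7 pairs of genes whose proteins share an element, bind or are paralogs, an exact two-sided permutation test over 2 against 2 libraries cannot go below 0.333, and every pair was at that value (adjusted over the 7 pairs, 0.333). In reads per codon, *Syce2* exceeded its assembly partner *Tex12* by 1.45 and 2.27 times in control and had a ratio of 0.768 and 0.888 in *Eef1g*-cKO, where the counting limits of the 2 genes overlapped. The *Syce1* to *Six6os1* ratio was 3.52 and 5.20 in control and 2.10 and 1.75 in cKO. The *Hormad1* to *Hormad2* ratio was 3.03 and 2.69 in control and 7.66 and 6.37 in cKO. In these 3 pairs the gap between genotypes exceeded that between replicates, the ratio changing by factors of 0.455, 0.447 and 2.45.

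In the other 4 pairs the ratios shifted less. *Sycp1* to *Sycp3*, transverse filament to lateral element, was 0.225 and 0.147 in control, against 0.107 and 0.135 in *Eef1g*-cKO. *Sycp2* to *Sycp3*, within the lateral element, was 0.137 and 0.0909 in control and 0.0754 and 0.0867 in cKO. In both pairs the control libraries differed from each other by more than control replicate 2 differed from either cKO library. *Syce1* to *Sycp1*, central element to transverse filament, was 0.645 in control replicate 1 and 1.16 in control replicate 2, against 0.619 and 0.644 in cKO, so control replicate 1 was at the cKO level. *Syce3* to *Sycp1* was 0.976 and 1.26 in control and 1.40 and 1.73 in cKO.

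**Figure D4:**
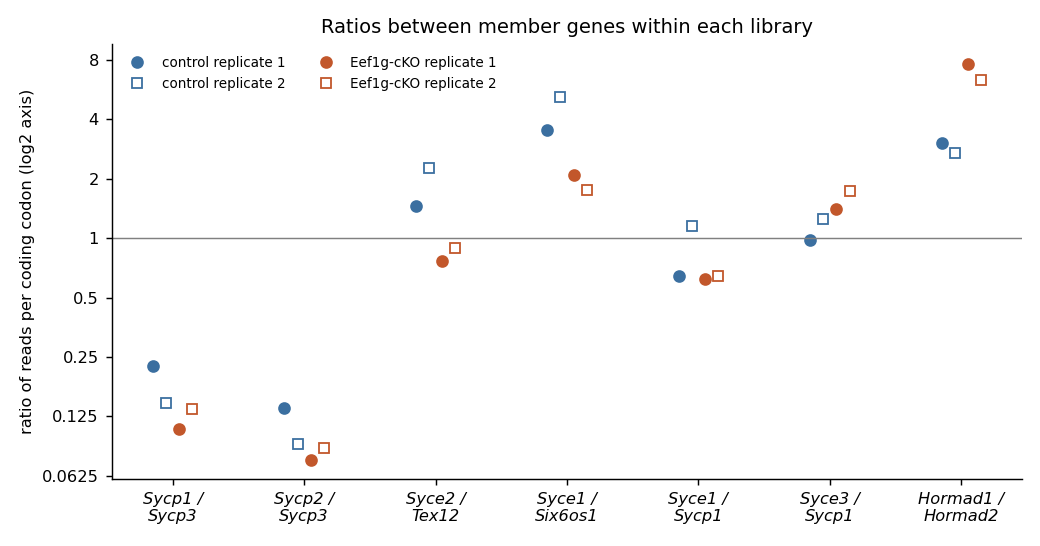
Ratio of reads per coding codon (log2 axis) for 7 pairs of genes in each of the 4 libraries. *Syce2* over *Tex12* is above 1 in both control libraries and below 1 in both cKO libraries, and *Hormad1* over *Hormad2* is 2.69 and 3.03 in control and above 6 in cKO, while *Syce1* over *Sycp1* is nearly the same in control replicate 1 and both cKO libraries.

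The control libraries differed from each other on these genes. *Syce1* apart, 9 of the 10 had a higher FPKM in control replicate 1 than in control replicate 2, and for 8 the exact 95% limits of the ratio lay above 1. The ratio was 1.53 in the median member, from 0.972 for *Syce1* to 1.86 for *Hormad1*, whereas it was 0.904 (quartiles 0.738 and 1.12) over the 6080 tested genes with at least 30 reads in both. In *Eef1g*-cKO the limits of the same ratio held 1 for 9 of the 10 genes, *Sycp3* being the exception at 1.25 (limits 1.12 to 1.39). The share of all genes with limits clear of 1 was not counted. The chi-square per degree of freedom between replicates, 1 under counting error alone, was 13.2 over 9809 control genes and 1.96 over 4728 cKO genes. This value grows with depth, which was higher in control.

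Base composition moved with both differences. Over all tested genes the median log2 fold change fell from 0.47 for coding sequences under 40% GC (127 genes, 6 of them members) through 0.20 (40 to 45%), 0.04 (45 to 50%), -0.28 (50 to 55%) and -0.52 (55 to 60%) to -0.66 above 60%. The median ratio of control replicate 1 to control replicate 2 fell along the same bins from 1.14 to 0.816, and in *Eef1g*-cKO the replicate ratio stayed between 1.02 and 1.11. All 10 members lay above the median of their own bin, by 0.32 for *Sycp1*, 0.44 for *Sycp2*, 0.61 for *Syce1*, 0.79 for *Hormad2*, 0.91 for *Sycp3*, 1.01 for *Six6os1*, 1.19 for *Syce2*, 1.55 for *Syce3*, 1.58 for *Tex12* and 1.82 for *Hormad1* on the log2 scale. The bin under 40% had a median GC of 38.8%, above the GC content of its members other than *Tex12*, so its genes were mostly richer in GC than these members. *Sycp1* and *Sycp2* lay below the upper quartile of that bin, 1.13.

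With the trend on coding GC removed from each library before the fit, 3 members were called higher (3.18% of 9769 tested genes). *Hormad1* was at 1.50 (SE 0.23, limma adjusted p = 0.0255), *Tex12* at 1.41 (SE 0.22, 0.0255) and *Syce3* at 1.15 (SE 0.24, 0.0406). *Syce2* was at 0.93 (adjusted p = 0.0397), under the fold threshold. *Sycp3* was at 0.68 (adjusted p = 0.105) and *Six6os1* at 0.50 (0.202), so these 2 calls were lost. *Sycp2* was at 0.14, *Hormad2* at 0.54 and *Syce1* at 0.26, and *Sycp1* was at -0.08 (adjusted p = 0.824), with the sign turned. The members' median was 0.61, against -0.25 over all genes tested in this fit, so *Sycp1* was still above the median gene. Few tested genes have coding sequences as low in GC as *Six6os1* or *Sycp1*, so the trend rests on few genes there, and whether base composition plays a part in the differences was not tested.

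**Figure D5:**
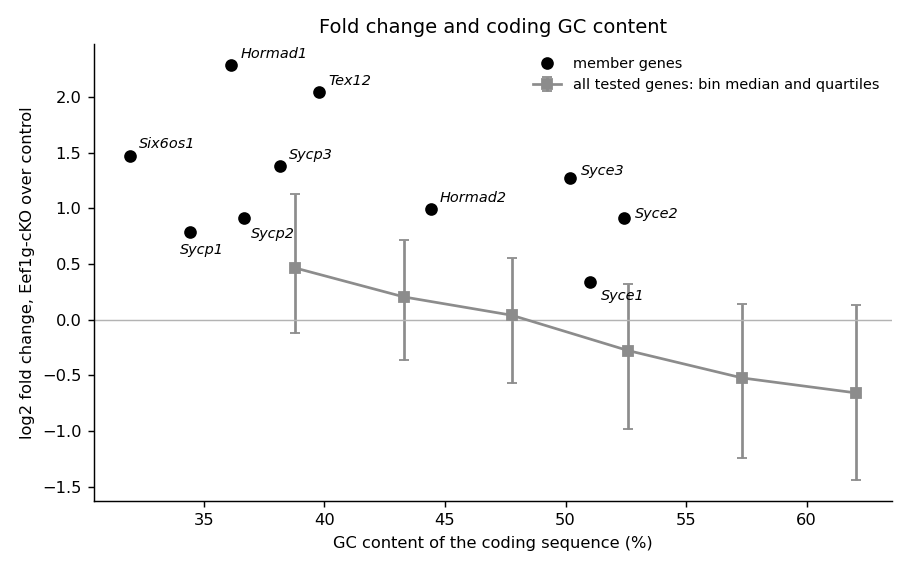
Log2 fold change (*Eef1g*-cKO over control) against GC content of the coding sequence for the 10 genes (black) and for all tested genes in bins (grey squares, median with quartiles). All 10 genes lie above the median of their bin, which falls from 0.47 to -0.66. The lowest bin has a median GC of 38.8%, above the GC content of its members other than *Tex12*.

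Genes that work with these proteins were described from a list of 21, of which 19 were in the table, chosen like the members with earlier results of these data known. Of the 19, limma called 4 higher (2.87% of tested genes) and 0 lower, and their median log2 fold change was 0.14. At an unadjusted p under 0.05 with a log2 fold change below -1, 1 was lower, *Rec114*, where 16.3% of tested genes were. Among the axis cohesins, which hold the axis together, *Smc1b* had 229 and 201 FPKM in control, against 565 and 612 in *Eef1g*-cKO (log2 fold change 1.45, SE 0.20, limma adjusted p = 0.0296), and *Rad21l* had 66.6 and 55.7 in control and 164 and 155 in cKO (1.37, SE 0.21, adjusted p = 0.0307). *Rec8*, the other meiotic kleisin, had 22.2 and 48.5 FPKM in control and 26.1 and 19.1 in cKO, with overlapping groups (adjusted p = 0.419). *Sun1*, which ties telomeres to the nuclear envelope, had 43.6 and 52.8 FPKM in control and 112 and 137 in cKO (1.35, SE 0.23, adjusted p = 0.0352), and *Psma8*, a testis proteasome subunit, had 15.7 and 16.6 in control and 42.2 and 34.7 in cKO (1.19, SE 0.26, adjusted p = 0.0497). After removal of the GC trend, *Smc1b* was at 0.81 (adjusted p = 0.0527), *Rad21l* at 0.78 (0.0584) and *Psma8* at 0.78 (0.124), so these 3 calls were lost. *Sun1* stayed at 1.48 (0.0249), and *Hspa2*, a chaperone of synaptonemal complex disassembly, was gained at 1.11 (0.0439), so that 2 partners were called (3.18% of tested genes).

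The HORMAD-binding and break-forming partners showed no call in either direction by limma. The 3 lowest log2 fold changes of the list belonged to *Rec114*, an axis-bound break factor, *Fkbp6*, a synapsis-linked cochaperone, and *Trip13*, the ATPase that strips HORMADs from the axis. *Rec114* had 81.3 and 115 FPKM in control, against 45.5 and 41.6 in *Eef1g*-cKO (-1.14, SE 0.25, limma adjusted p = 0.0518), and edgeR called it lower (adjusted p = 0.0381). *Fkbp6* had 312 and 346 in control and 171 and 164 in cKO (-0.97, SE 0.19, adjusted p = 0.0441), short of the fold threshold. *Trip13* had 30.1 and 33.5 in control and 21.7 and 13.0 in cKO (-0.88, SE 0.33, adjusted p = 0.138).

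Markers of other germ cell stages moved between the genotypes as well. Summed over 10 spermatogonial markers, FPKM were 1493 and 1762 in control, against 247 and 230 in *Eef1g*-cKO. Most of that sum was *Uchl1*, with 1011 and 1138 in control and 140 and 120 in cKO. Limma called 6 of the 10 lower (4.97% of tested genes), and none was at 0 in both cKO libraries. *Stra8*, which marks entry into meiosis, fell by 1.21 on the log2 scale (SE 0.22, limma adjusted p = 0.0379). The 9 leptotene and zygotene markers that were not members summed to 2394 and 2810 FPKM in control and 7033 and 6266 in cKO, a ratio of 2.56, close to the 2.52 of the summed FPKM of the 10 members. Most of that sum was *Tex101*, and the 8 markers without it summed to 559 and 520 FPKM in control and 960 and 984 in cKO, a ratio of 1.80. Of the full list of 11, limma called 5 higher (2.87% of tested genes) and 0 lower. The 5 were *Dmc1*, *Meiob*, *Spata22* and the members *Hormad1* and *Sycp3*. The list did not move as one: *Rec8* was at -0.54, *Mei1* at -0.26 and *Spo11* at 0.01 on the log2 scale. Of 5 pachytene markers in the table, limma called 1 higher (2.87% of tested genes), and 4 of the 9 listed were absent. The called marker was *Hist1h1t*, with 388 and 301 FPKM in control and 1458 and 1354 in cKO. *Piwil1* went the other way, with 8.18 and 2.93 FPKM in control and 1.13 and 1.24 in cKO. Its log2 fold change of -1.46 was not called (limma adjusted p = 0.161) and rested on 1 and 2 cKO reads. *Tbpl1* at -0.04, *Ybx2* at 0.25 and *Ldhc* at 0.96 were not called either. Of the 9 Sertoli cell markers in the table, limma called 0, edgeR 4 lower (*Clu*, *Vim*, *Cldn11* and *Aard*) and DESeq2 1 lower (*Vim*). Over all genes, limma called 4.97% of 10475 lower and edgeR 11.2% of 8056. DESeq2 called 451 lower, 3.89% of all 11598 genes, of which it gave only 8450 an adjusted p. The 9 Sertoli cell markers summed to 732 FPKM in control replicate 1 and 181 in control replicate 2, and to 163 and 117 in cKO. Markers of Leydig cells summed to no more than 5.82 FPKM in any library, of spermatids to 7.38 and 55.3 in control and 0 and 15.1 in cKO, and of peritubular cells to 20.8 to 43.8, and no macrophage marker was in the table. The part of stage composition or of other cells in the members' differences was not tested.

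Reads shared with overlapping genes could bear on 4 members, since strand handling in the counting was not given in the sources used here. *Sycp3*, *Syce2*, *Tex12* and *Six6os1* overlap *Chpt1*, *Gcdh*, *Il18* and *Six6* on the opposite strand. *Chpt1* was at no more than 2.12 FPKM in any library and *Gcdh* at no more than 5.37, far below *Sycp3* and *Syce2*. *Il18* was at 7.92 and 0.834 FPKM in control, against 10.3 and 5.66 in *Eef1g*-cKO, against 485 and 473 for *Tex12* in cKO. *Six6* was not in the table, nor were the pseudogenes annotated on the opposite strand within *Sycp1* and *Syce1*.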

How the data were processed

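RPF libraries (RNase I digestion, QEZ-seq kit) came from sorted leptotene and zygotene spermatocytes, 2 per genotype. The submitters' processing notes name cutadapt, Bowtie and STAR with mm10 and hg38. The counting tool, annotation and strand setting for the Ribo-seq data were not given in the sources used here. The deposited table holds FPKM per gene and library, and the authors' normalized signal per gene (read counts divided by size factors). It also holds the authors' comparison (mean, log2 fold change, its SE, test statistic, p-value and adjusted p), which was not used. From the deposited signal, whole read counts were recovered (100% of values within 0.001 of a whole read), and FPKM equalled these reads scaled by gene length and library total.

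The main test was limma 3.58.1 (trended eBayes) on log2(FPKM + 1), a scale that understates changes of low genes, over the 10475 genes whose mean reached 1 FPKM, with Benjamini-Hochberg adjustment. Calls needed both an adjusted p below 0.05 and a log2 fold change beyond 1 in either direction. edgeR 4.0.16 (quasi-likelihood, 8056 genes) and DESeq2 1.42.0 on the recovered counts were alternatives, and all were tested on simulated data. Coding sequences were the longest per gene in GENCODE M21 (GRCm38). Promoters were from RefSeq (GRCm38.p6). The members, gene lists and tests were chosen with earlier results of these data known. Named genes were all members, *Eef1g*, called partners and the 3 partners with the lowest log2 fold change. Others were added where a result turned on them. Python 3.11.15 and R 4.3.3 were used.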

Additional observations from a re-analysis of the deposited data

How the results depend on the processing

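Of 200 member results (10 genes, 20 alternatives), 158 kept their direction and side of the threshold, 34 lost the call, 6 gained it and 2 turned sign. Only the 5 genes called in the main fit could lose a call, so all 34 losses were theirs. The 2 turned signs were both for *Sycp1* after removal of the GC trend (-0.0788 with or without the replicate block). Against 5 members called by adjusted p, the count was 0 with a pseudocount of 0.1 (0.277% of tested genes called higher), with a prior variance without trend and after thinning to the lowest total, 3 without a filter on low genes (1.77%) and 3 after GC removal (3.18%, 3.42% with the block), with or without the replicate block. At an unadjusted p below 0.05 with the fold threshold kept, the count was also 5 in the main fit. It was then 9 after median centring (11.0% of tested genes) and 3 after GC removal in both fits (6.8% and 6.96%). Leaving out one library gave 0 to 4 members called by adjusted p, 5 to 8 unadjusted, and 0 to 4 partners against 4. Limma called 0 of all tested genes in the untrended, thinned and control-left-out fits. With edgeR 7 members were called (8.75% of tested genes) and with its replicate block 6 (9.41%). The correlation of replicate differences between the genotypes was -0.008. It cannot decide whether replicate numbers pair the libraries, since a gene had a median of only 5 and 8 reads in the cKO libraries. The replicate block in limma called 5 members (4.05% of tested genes). Per coding codon in place of FPKM, the mean *Syce2* to *Tex12* log2 ratio changed from -0.34 to 0.29 and *Syce3* to *Sycp1* from -0.47 to 0.39. The cause of these changes was not tested, and 2 libraries a group and 22 to 49 reads for *Hormad2* in *Eef1g*-cKO limit the precision.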
